A study of Mus musculus with 4 samples.

Results

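The growth factors CSF1, IL-34, G-CSF and FLT3 ligand and the receptors they bind were followed at the transcript level through 7 genes chosen by symbol: Csf1, Il34, Csf1r, Csf3, Csf3r, Flt3l and Flt3. All 7 were among the 32285 genes of the matrices. Leukocytes carrying CD45 had been sorted from the spinal cord of C57BL/6 mice. All mice had experimental autoimmune encephalomyelitis (EAE), in which autoreactive T cells drive inflammation of the spinal cord. Mice of both groups had EAE, were injected intracranially on day 9, and were sampled on day 16. The injection was Ctrl MO in the control group (libraries Ctrl 1 and Ctrl 2) and Reg1-MOs in the treated group (libraries Reg1-MO 1 and Reg1-MO 2). The labels spell out neither Reg1 nor MO and do not say how many animals went into a library, so p-values measure only the spread between these libraries. The age and sex of the mice are not given in the labels.

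CSF1 (macrophage colony-stimulating factor) and IL-34 are the ligands of CSF1R, a receptor tyrosine kinase on which microglia and most macrophages depend for survival. G-CSF, the product of Csf3, acts through the G-CSF receptor encoded by Csf3r and drives the production and release of neutrophils. FLT3 ligand acts through FLT3, a receptor tyrosine kinase of early progenitors that stays on in the dendritic cell lineage. In the central nervous system, IL-34 is known mainly from neurons and CSF1 from glia, so a CD45 sort shows these ligands only as far as leukocytes make them.

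Sequence upstream of Csf1 and Csf3r is shown because both differed widely in level between clusters of neutrophil-like cells. RefSeq promoter sequence on GRCm38.p6 matched 4 of the 7 genes (Csf1, Csf3r, Flt3 and Flt3l). A search on both strands looked for a kappa B core (GGACTTTCC), a PU.1 core (GAGGAA), a C/EBP palindrome (TTGCGCAA), a RUNX core (TGTGGT), an AP-1 element (TGANTCA) and a TATA box (TATAAA). The window ran from 250 bases before the start site to 50 bases after it. Capitals mark the match, which in Csf1 lies on the strand opposite to the one printed.
Csf1, chr3:107760470-107760719, minus strand, 250 bases before the start site: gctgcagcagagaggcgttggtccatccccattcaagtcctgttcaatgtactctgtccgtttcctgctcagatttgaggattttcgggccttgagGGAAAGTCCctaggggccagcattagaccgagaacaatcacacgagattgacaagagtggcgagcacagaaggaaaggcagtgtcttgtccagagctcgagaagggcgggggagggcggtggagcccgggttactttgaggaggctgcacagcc
Csf3r, chr4:126024561-126024590, plus strand, 30 bases around a PU.1 core: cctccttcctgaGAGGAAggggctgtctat
The kappa B core began 154 bases before the Csf1 start site and was present in 113 of 32851 promoters of the same length (0.344%). The PU.1 core began 86 bases before the Csf3r start site and was present in 28.3% of them, so it does not set Csf3r apart. The RefSeq start site used for Csf3r lies downstream of the GENCODE gene start (126024550), so the stretch printed is upstream of the first and inside the gene by the second. For Csf1 the stretch printed ends at the base before the GENCODE gene. None of the 6 motifs was found in the Flt3 or Flt3l window. These are matches of letters, and binding was not measured.

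The libraries held 5256 to 9103 cell barcodes and 75472324 to 174552218 UMIs (unique molecular identifiers, each counting 1 captured transcript). After filtering, 7547, 6273, 8080 and 4953 cells were used from Ctrl 1, Ctrl 2, Reg1-MO 1 and Reg1-MO 2, with medians of 9458 to 11548 UMIs. Of 32 clusters, 28 were named from marker genes, none of which was among the 7 genes, and names carry the suffix "-like". All named clusters belonged to leukocyte classes. An unnamed cluster (cluster 18, leading genes Apoc4, Ltc4s and Saa3) scored highest for microglial markers but led with genes of another class, and 281 of its 414 cells came from Ctrl 2. The microglia-like class was also uneven. In Ctrl 2 it consisted of 498 cells of cluster 5 (Csmd3, Tanc2, Nav3) and 16 of cluster 8 (Cx3cr1, Cd36, Sparc). Ctrl 1 had 146 and 367 cells of these clusters, Reg1-MO 1 had 305 and 825, and Reg1-MO 2 had 666 and 187. Cluster 24 (Sdk1, Adamts1, Fcrls) added 22 cells in Ctrl 1, 0 in Ctrl 2, 64 in Reg1-MO 1 and 154 in Reg1-MO 2. A total of 181 barcode strings occurred in more than 1 library. Transcripts of Zc3h12a, the gene of Regnase-1, did not pass the test in any class or cluster fitted, and the labels do not say whether Reg1 stands for it. Over all cells edgeR gave it a log2 fold change of -0.10 (SE 0.14) with an adjusted p of 0.736.

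Among named classes, Csf1 transcripts were highest in microglia-like cells. Levels are given as CPM (UMIs of the gene per 1000000 UMIs of the class in a library). In microglia-like cells Csf1 was at 159 CPM in Ctrl 1, 591 in Ctrl 2, 153 in Reg1-MO 1 and 232 in Reg1-MO 2. The Ctrl 2 value stood above the other three, and the groups overlapped. Neutrophil-like cells had 57.0, 31.7, 71.5 and 45.4 CPM, and CD4 T-like cells had 36.1, 53.6, 34.4 and 29.4 CPM in the same library order. These ranges overlapped each other, so neutrophil-like and CD4 T-like cells were not separated in the order of Csf1 levels, and both lay below the microglia-like range. Macrophage-like cells held 7.86 to 16.9 CPM of the ligand. Unnamed cluster 18 had 380.1, 218, 341 and 271 CPM and held 11.2% of all Csf1 UMIs, against 71.6% in microglia-like and 6.00% in neutrophil-like cells.

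Within the neutrophil-like class, Csf1 was concentrated in cluster 13, whose leading genes Cxcl3, Acod1 and Cxcl2 are inflammatory response genes. Its levels were 674 CPM in Ctrl 1, 457 in Ctrl 2, 571 in Reg1-MO 1 and 632 in Reg1-MO 2, and the groups overlapped. Cluster 13 gave 76.3% of the Csf1 UMIs of the class from 670 of its cells. The other large neutrophil-like clusters ranged from 0 to 47.4 CPM, which did not overlap with cluster 13. With every cell thinned to 3000 UMIs, 55.3% of the 376 deep enough cells of cluster 13 had a Csf1 UMI (58.0, 49.0, 52.3 and 59.7% in Ctrl 1, Ctrl 2, Reg1-MO 1 and Reg1-MO 2), and 294 shallower cells were left out. The thinned share was 42.7% in cluster 5, the highest of the microglia-like clusters, and 0.92% in the cDC-like cluster, which has little Csf1. Before thinning, 54.4 to 60.0% of cluster 13 cells had a Csf1 UMI, at a median of 3152 UMIs per cell against 15418 in the cDC-like cluster. Microglial marker transcripts in cluster 13 summed to 191 to 502 CPM, against 3865 to 10185 CPM in microglia-like cells.

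Il34 was close to absent, with 107 UMIs in 66 of 26853 cells. Plasmacytoid dendritic cell (pDC)-like cells held 78.5% of these UMIs. They had 5 UMIs in Ctrl 1, 16 in Ctrl 2, 53 in Reg1-MO 1 and 10 in Reg1-MO 2, that is 11.1, 39.9, 30.6 and 13.2 CPM, and the groups overlapped. The UMIs were spread over 2 of 43, 5 of 35, 31 of 169 and 5 of 69 pDC-like cells. Every other class stayed below 1 CPM in each library, and the pDC-like range did not overlap with any of them. Microglia-like and macrophage-like cells, which carry its receptor, had at most 4 Il34 UMIs in a library.

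Csf1r, the shared receptor, followed the mononuclear phagocytes. Microglia-like cells had 821 CPM in Ctrl 1, 1470.1 in Ctrl 2, 955 in Reg1-MO 1 and 1483 in Reg1-MO 2. Macrophage-like cells had 482, 398, 557 and 588 CPM, below every microglia-like value and above every other class. B/plasma-like (42.9 to 138 CPM), progenitor-like (52.7 to 133 CPM) and cDC-like cells (49.8 to 107 CPM) came next with overlapping ranges. T-like cells had 3.5 to 10.4 CPM. Depth per cell differed between types, with median UMIs of 7015 in cluster 0, the largest T-like cluster, 13234 in cluster 1, the largest macrophage-like one, and 14601 and 58966 in microglia-like clusters 5 and 8. After thinning to 3000 UMIs, 94.8% of microglia-like (95% Wilson interval 94.0 to 95.5%) and 72.5% of macrophage-like cells (71.5 to 73.5%) had a Csf1r UMI, against 2.33% of T-like cells, which should lack the gene. Before thinning the shares were 98.9 to 99.9% in microglia-like, 93.5 to 97.8% in macrophage-like and 2.54 to 8.27% in T-like cells. Intervals cover counting error only. In microglia-like cells the share with both Csf1 and Csf1r was 30.7, 48.8, 29.2 and 34.5% in Ctrl 1, Ctrl 2, Reg1-MO 1 and Reg1-MO 2, and the product of the separate shares was 30.3, 48.6, 28.8 and 34.0%. Csf1r alone was found in 91.8, 98.0, 93.0 and 97.0% of these cells, so the share with both could hardly depart from that product. The comparison therefore cannot show whether ligand and receptor go together.

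**Figure D1:**
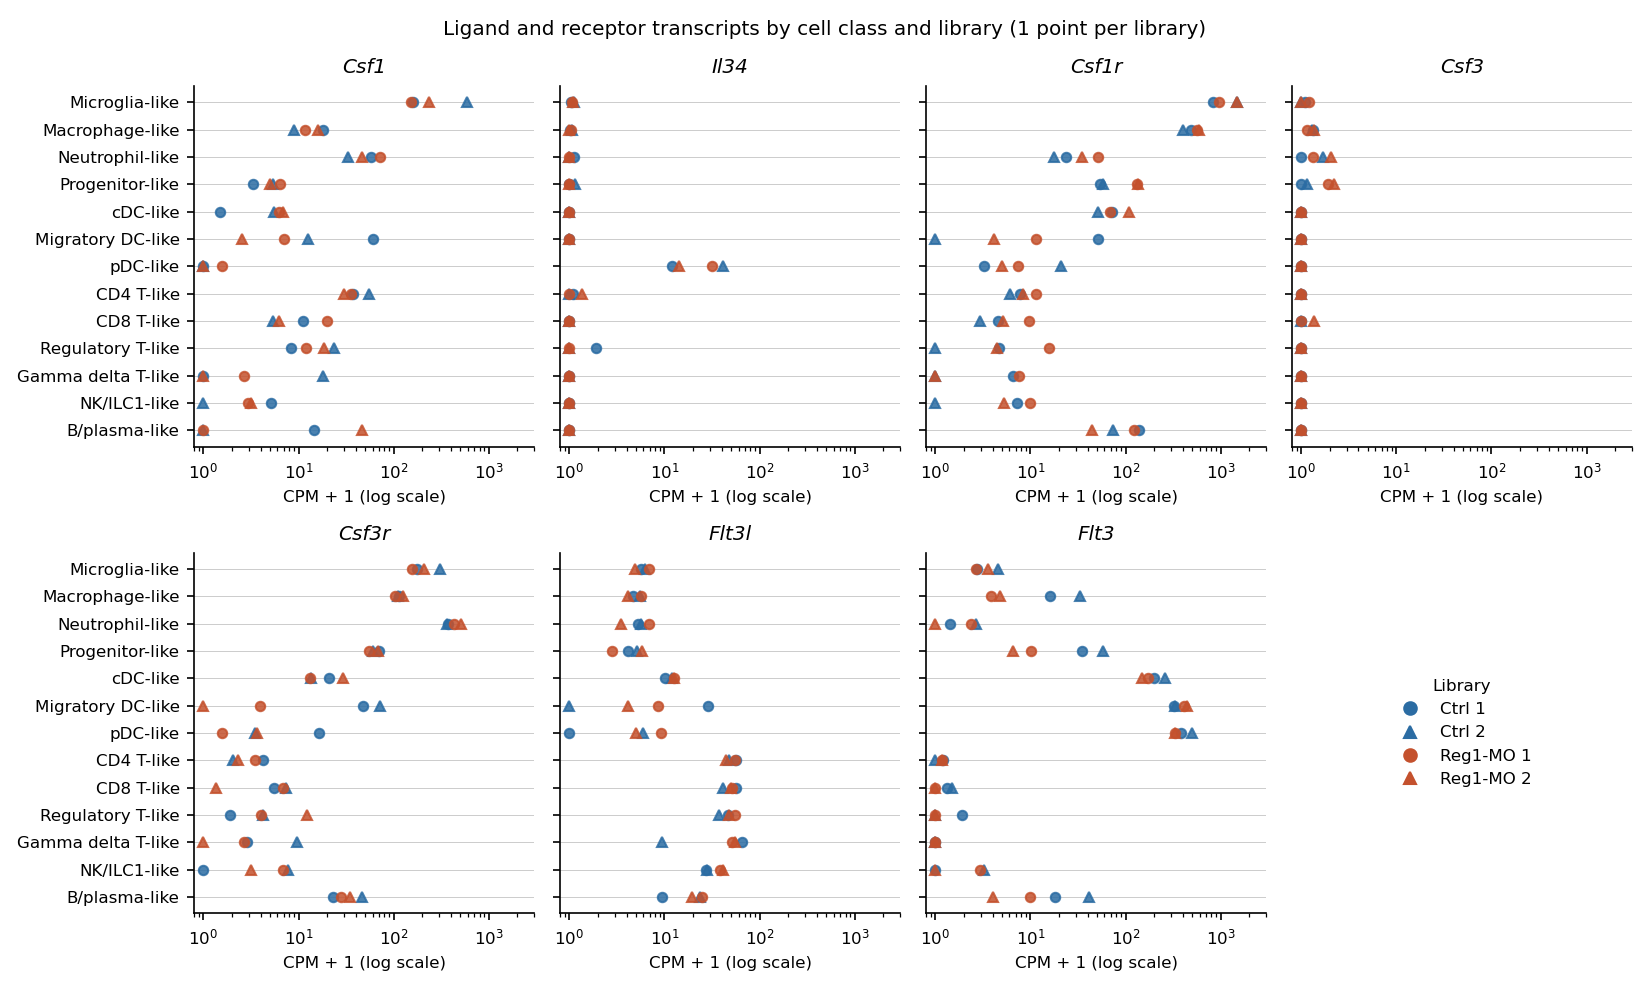
CPM + 1 on a log axis for each gene (panels) in each named class (rows), with 1 point per library (circles replicate 1, triangles replicate 2, blue Ctrl, red Reg1-MO). Csf1r is highest in microglia-like cells (821 to 1483 CPM), Csf3r in neutrophil-like cells (365 to 512 CPM), Flt3 in the pDC-like and migratory DC-like classes, Flt3l in T-like subsets, and Il34 rises above 1 CPM only in pDC-like cells.

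The effect of Reg1-MO on these genes was tested on UMIs summed per library and class with the quasi-likelihood test of edgeR, adjusted by Benjamini-Hochberg over all genes tested, with 2 libraries a group. At an adjusted p under 0.05, edgeR called 0 of 13803 genes (0.0%) in microglia-like cells. DESeq2 called 5, and 325 had an unadjusted p under 0.05. The log2 fold change, Reg1-MO over Ctrl and given with its SE, was -0.97 ± 0.64 for Csf1 and 0.07 ± 0.40 for Csf1r (adjusted p = 1.0 for both). Without Ctrl 2 the Csf1 value was 0.19, so its direction rested on that library. Microglia-like Csf1r was at 821 and 955 CPM in Ctrl 1 and Reg1-MO 1. It was at 1470 and 1483 CPM in Ctrl 2 and Reg1-MO 2, and the fit took no account of replicate numbers. Cluster 8 made up 68.6 and 69.1% of the class in Ctrl 1 and Reg1-MO 1, and 3.11 and 18.6% in Ctrl 2 and Reg1-MO 2. In cluster 5 alone Csf1r was at 1378 CPM in Ctrl 1, 1529 in Ctrl 2, 1414 in Reg1-MO 1 and 1815 in Reg1-MO 2. The part of the cluster mix in the class value was not tested. Within cluster 5 alone, fitted after the class results were seen, normalised Csf1 was 360.2 and 612 CPM in the controls and 279 and 306 CPM in Reg1-MO. The groups did not overlap, but the log2 fold change of -0.73 ± 0.31 was not called (adjusted p = 0.603). In cluster 5 edgeR called 0 of 11438 genes (0.0%) and DESeq2 28, and 958 had an unadjusted p under 0.05.

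Outside microglia-like cells, Csf1r was higher with Reg1-MO, without overlap of the libraries, in macrophage-like, neutrophil-like, progenitor-like and T-like cells. Of these classes it passed the test only in progenitor-like cells, and the lack of overlap in the others is a description. With 2 against 2 libraries such a separation can also arise without a treatment effect. The share of all genes tested that showed no overlap was not counted, in these classes or in any other fit. Lack of overlap therefore has no background to be read against, and alone it does not set a gene apart. In macrophage-like cells normalised Csf1r was 474 and 396 CPM in Ctrl against 570.2 and 588 CPM in Reg1-MO, a log2 fold change of 0.41 ± 0.14 (adjusted p = 0.264). In neutrophil-like cells, where the gene is low, it was 22.4 and 16.3 against 47.8 and 37.0 CPM, a log2 fold change of 1.12 ± 0.21 (adjusted p = 0.127 by edgeR, 0.00436 by DESeq2). Neither class showed overlap between the groups. T-like cells, which should lack the gene, had 5.50 and 3.47 against 10.5 and 5.58 normalised CPM (0.84 ± 0.37, adjusted p = 0.492), also without overlap. In CD8 T-like cells the values were 3.58 and 1.96 against 8.90 and 4.03 CPM (1.17 ± 0.50, adjusted p = 0.717). Microglial markers summed to 119 and 105 CPM in Ctrl and 213 and 115 CPM in Reg1-MO in neutrophil-like cells, and their part in the Csf1r values was not tested.

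The macrophage-like class held its clusters in unequal proportions in the 4 libraries. Cluster 1 (Plac8, Ms4a4c, Timp1) was 26.5 and 10.6% of the class in Ctrl and 41.3 and 55.2% in Reg1-MO, and cluster 3 (Saa3, Gpnmb, Atp6v0d2) was 26.7 and 58.6% against 17.2 and 10.4%. Cluster 11, the lowest of them in Csf1r (180.4 to 368 CPM), was 17.8 and 27.5% against 3.24 and 10.2%. Neutrophil markers in the class summed to 3946 and 4131 CPM in Ctrl and 1074 and 2912 CPM in Reg1-MO. The part of these differences in the Csf1r value was not tested. Fits that leave out 1 library keep a single library in 1 group and take the spread from the other group, assuming that the lone library varies alike. Without Ctrl 1 edgeR called Csf1r at 0.55 in macrophage-like cells (adjusted p = 0.032), where 2302 of 13405 genes were then called, and at 1.37 in neutrophil-like cells (adjusted p = 0.0025), where 314 of 10761 were.

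For the 13302 genes of macrophage-like cells the share called by edgeR was 0.0%, 2342 genes had an unadjusted p under 0.05 and DESeq2 called 527. It was 0.0184% of 10847 genes in neutrophil-like cells (2 genes), where DESeq2 called 189. Over all cells summed, normalised Csf1r was 408 and 406 CPM in Ctrl and 602 and 665 CPM in Reg1-MO, with no overlap and a log2 fold change of 0.64 ± 0.14 (adjusted p = 0.205 by edgeR, 0.00141 by DESeq2). In that fit 0.0% of 16780 genes were called by edgeR, 2891 had an unadjusted p under 0.05 and DESeq2 called 1021. Microglia-like cells, the class with the most Csf1r, were 7.09 and 8.19% of Ctrl and 14.8 and 20.3% of Reg1-MO cells, and the part of this in the summed value was not tested. Whether the treatment effect differed between microglia-like and macrophage-like cells was tested as an interaction. By edgeR it called 0 of 14248 genes (0.0%, 308 having an unadjusted p under 0.05), and for Csf1r the difference was -0.31 ± 0.43 (adjusted p = 0.999).

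Csf3, the G-CSF gene, gave 90 UMIs in 54 cells of all libraries. Macrophage-like cells held 41.1%, neutrophil-like 24.4% and microglia-like cells 17.8% of them. By library, macrophage-like cells had 14, 8, 8 and 7 UMIs. Microglia-like cells had 3 in Ctrl 1, 13 in Reg1-MO 1 and none in the other libraries, and no cell of a named class had more than 4. In Ctrl 2, 8 further UMIs lay in 2 cells of unnamed clusters. The source of G-CSF was therefore not resolved at this depth.

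Csf3r, by contrast, was abundant in 3 classes. Neutrophil-like cells had 374 CPM in Ctrl 1, 365 in Ctrl 2, 425 in Reg1-MO 1 and 512 in Reg1-MO 2. Microglia-like cells followed at 173, 305, 154 and 208 CPM and macrophage-like cells at 113, 110.0, 103 and 124 CPM. Progenitor-like cells had 54.0 to 68.8 CPM. These 4 ranges did not overlap. Thinned to 3000 UMIs, 61.3% of neutrophil-like (60.0 to 62.7%), 45.6% of microglia-like (43.8 to 47.3%) and 26.4% of macrophage-like cells (25.4 to 27.4%) had a Csf3r UMI, against 0.644% of T-like cells. Before thinning the shares were 79.0 to 87.9%, 93.2 to 95.6%, 68.8 to 75.5% and 1.36 to 1.77%.

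Neutrophil marker transcripts were present to unequal extents in the microglia-like clusters. In cluster 5 Csf3r was at 200.05, 315, 187 and 240.4 CPM in Ctrl 1, Ctrl 2, Reg1-MO 1 and Reg1-MO 2. There the 15 neutrophil markers summed to 379 to 979 CPM, against 314530 to 367184 CPM in neutrophil-like cells. Cluster 8 had more neutrophil marker transcripts (20174, 10260, 1693 and 22578 CPM) and similar Csf3r (171, 201.5, 152 and 199 CPM). Reg1-MO 1 had the fewest neutrophil marker transcripts there and the lowest Csf3r, and its Csf3r was also the lowest in cluster 5. Ctrl 2, with 16 cells in cluster 8, had fewer neutrophil marker transcripts there than Ctrl 1 but the highest Csf3r. The Csf3r values of Ctrl 2 and Reg1-MO 2 in cluster 8 were close (201.5 and 199 CPM), so nothing is drawn from their order. The part of neutrophil transcripts in these values was not tested cell by cell.

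Across neutrophil-like clusters Csf3r climbed with the marker order from granule to mature genes. Cluster 15, led by the granule genes Camp and Ngp and by Cebpe, a regulator of granule formation, had 68.2 to 84.6 CPM. Cluster 9 (Ltf, Ngp, Ifitm6) had 131 to 165 CPM and cluster 7 (Retnlg, Mmp9, Mmp8) 311 to 409 CPM. Cluster 2 (Cstdc4, Stfa2l1, Retnlg) had the highest levels, with 1126 CPM in Ctrl 1, 1071 in Ctrl 2, 1285 in Reg1-MO 1 and 1570 in Reg1-MO 2. Cluster 13, the Csf1 site, had 768 to 894 CPM. No range overlapped with another. The thinned share of cells with a Csf3r UMI followed the same order, at 22.6, 33.8, 63.1, 91.4 and 77.7% for clusters 15, 9, 7, 2 and 13. Csf1r had 4.68 to 18.9 CPM in cluster 9, 44.4 to 93.5 CPM in cluster 2 and 82.0 to 134 CPM in cluster 13. In cluster 15 it was at 3.995 to 4.65 CPM in all but Reg1-MO 1 (39.96 CPM, 48 cells). The clusters differ in depth, with median UMIs of 21694, 10444, 6846, 3752 and 3152 in the order given, and CPM takes each cluster's total as its base.

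**Figure D2:**
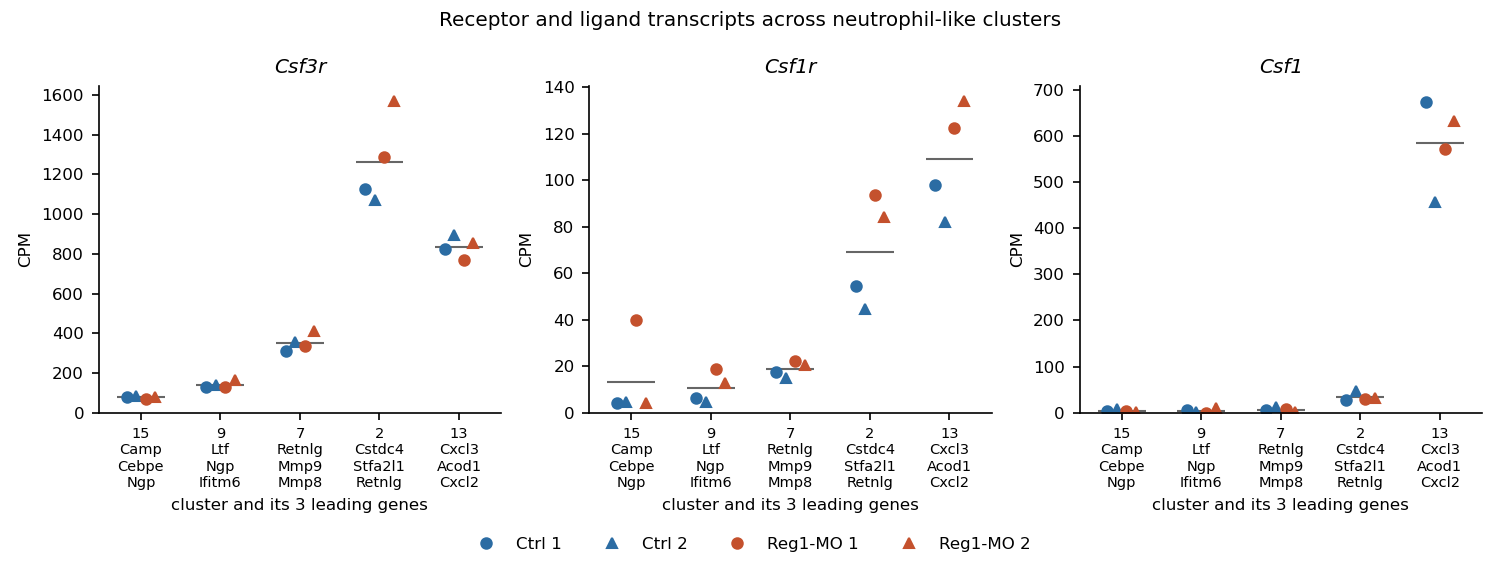
CPM of Csf3r, Csf1r and Csf1 (panels, linear axes from 0) in 5 neutrophil-like clusters, named by number and leading genes, with 1 point per library and a line at the mean of the 4 libraries. Csf3r peaks in cluster 2 (1071 to 1570 CPM) and Csf1 appears in cluster 13 (457 to 674 CPM) while staying at or below 47.4 CPM in the others.

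With Reg1-MO, Csf3r did not pass the test in any of these classes. Neutrophil-like cells had normalised levels of 368 and 352 CPM in Ctrl and 408 and 566 CPM in Reg1-MO, without overlap, and the log2 fold change was 0.44 ± 0.19 (adjusted p = 0.393). In cluster 2, fitted after the class results were seen, Csf3r had a log2 fold change of 0.47 ± 0.16 (adjusted p = 0.219) and Csf1r one of 0.92 ± 0.21 (adjusted p = 0.0834), where 0.704% of 6957 genes were called. Without Reg1-MO 2 edgeR called 0 genes there, 736 having an unadjusted p under 0.05. Microglia-like cells gave -0.42 ± 0.33 for Csf3r (adjusted p = 1.0) and macrophage-like cells 0.06 ± 0.12 (adjusted p = 0.808). Csf1 in neutrophil-like cells gave 0.44 ± 0.29 (adjusted p = 0.579), with overlapping groups.

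Flt3l was highest in T-like subsets. CD4 T-like cells had 55.9 CPM in Ctrl 1, 46.4 in Ctrl 2, 53.6 in Reg1-MO 1 and 43.0 in Reg1-MO 2, and CD8 T-like cells had 56.1, 40.5, 49.7 and 49.1 CPM. Regulatory T-like cells (36.1 to 53.9 CPM) and gamma delta T-like cells (8.53 to 64.8 CPM) overlapped with both. NK/ILC1-like cells had 26.6 to 40.7 CPM. T-like cells together held 60.1% of all Flt3l UMIs. Thinned to 3000 UMIs, 14.0% of CD4 T-like cells (13.004 to 15.1%) had a Flt3l UMI, against 1.32% of macrophage-like cells. Unthinned shares were 24.5 to 30.9% and 5.0 to 7.83%.

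In CD4 T-like cells neither of the ligands they hold passed the test. Flt3l had a log2 fold change of -0.10 ± 0.15 (adjusted p = 0.801), with overlapping groups. Csf1 was at 36.4 and 54.3 normalised CPM in Ctrl and 34.8 and 28.7 CPM in Reg1-MO, without overlap, and had a log2 fold change of -0.47 ± 0.19 (adjusted p = 0.349). In this class 0.0893% of 11201 genes were called (10 genes).

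Flt3, the receptor, marked the dendritic cells. The pDC-like cells had 381, 497, 326 and 329.5 CPM in Ctrl 1, Ctrl 2, Reg1-MO 1 and Reg1-MO 2, and migratory DC-like cells (led by Ccr7, Fscn1 and Ccl22) had 324, 328, 414 and 444 CPM, ranges that overlapped. Conventional dendritic cell (cDC)-like cells had 198, 259, 172 and 148 CPM, below both. The migratory DC-like value of Ctrl 2 rested on 9 cells. Thinned to 3000 UMIs, 63.5% of pDC-like (57.9 to 68.8%), 67.3% of migratory DC-like (59.5 to 74.3%) and 35.1% of cDC-like cells (31.6 to 38.9%) had a Flt3 UMI, against 3 of 6517 T-like cells. Before thinning the shares were 88.4 to 97.7%, 90.7 to 100.0% and 58.1 to 96.0%. In cDC-like cells the thinned share was 41.2 and 58.0% in Ctrl and 34.2 and 25.3% in Reg1-MO, without overlap (exact permutation p = 0.3333, two-sided, the smallest that 2 against 2 libraries allow). The Flt3 level there had a log2 fold change of -0.46 ± 0.20 (adjusted p = 0.357, edgeR). Of 9675 genes of cDC-like cells edgeR called 0.0% and DESeq2 77 genes, and 1357 had an unadjusted p under 0.05. Neutrophil marker transcripts in cDC-like cells were 4712 and 13963 CPM in Ctrl and 105 and 432 CPM in Reg1-MO, and their part in the Flt3 value was not tested.

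Among all the classes tested, edgeR called 2 of the 7 genes, both in progenitor-like cells, where Flt3 fell and Csf1r rose with Reg1-MO. Normalised Flt3 was 34.1 CPM in Ctrl 1 and 57.1 CPM in Ctrl 2, and 9.12 and 5.47 CPM in the 2 Reg1-MO libraries. Normalised Csf1r was 53.7 and 57.5 CPM in Ctrl against 132 and 130.1 CPM in Reg1-MO. Neither gene showed overlap between the groups. The log2 fold change was -2.65 ± 0.36 for Flt3 (adjusted p = 0.00862) and 1.24 ± 0.11 for Csf1r (adjusted p = 0.00205, edgeR). Of the 10735 genes tested in this class 5.8% were called. Csf1, Csf3r and Flt3l were tested there too and were not called. The Reg1-MO values for Flt3 rest on 20 and 14 UMIs, from 64 and 77 cells. Both genes had an adjusted p under 0.05 in each fit that left out 1 library, fits that called 193 to 932 genes and rest on the spread of the group with 2 libraries. When the removed doublets were kept, the cluster of Elane, Mpo and Ctsg was unnamed and so outside the class, and neither gene was called, with log2 fold changes of -3.12 for Flt3 (adjusted p = 0.239) and 0.55 for Csf1r (adjusted p = 0.367).

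The progenitor-like class joined 2 clusters in unequal parts. Cluster 28, led by the neutrophil granule genes Elane, Mpo and Ctsg, gave 80 and 64 cells in Ctrl and 3 and 9 in Reg1-MO. Cluster 16, led by Gria3, Prtn3 and Pclaf, gave 182 and 154 cells in Ctrl and 61 and 68 in Reg1-MO, and held 93.5% of the Flt3 and 92.3% of the Csf1r UMIs of the class. Cluster 16 was fitted alone after the class result was seen. Normalised Flt3 was 49.4 and 86.3 CPM in Ctrl and 9.87 and 6.90 CPM in Reg1-MO, and Csf1r was 83.8 and 85.1 against 142 and 132 CPM. No overlap was seen, and the log2 fold changes were -3.01 ± 0.36 for Flt3 (adjusted p = 0.056) and 0.70 ± 0.11 for Csf1r (adjusted p = 0.0819). Both missed the threshold in edgeR, which called 0.119% of 10120 genes in this fit. They passed it in DESeq2 (adjusted p = 2.33e-09 and 0.0189), which called 111 genes. Without Reg1-MO 2 edgeR called both genes (adjusted p = 0.0135 for Flt3 and 0.0268 for Csf1r, 314 genes called), without Reg1-MO 1 Flt3 alone (adjusted p = 0.0165, 87 genes called), and without Ctrl 1 or Ctrl 2 neither. With the class reduced to cluster 16 the Csf1r difference was thus smaller than in the whole class and the Flt3 difference was not. Thinned to 3000 UMIs, 14.4 and 18.3% of cluster 16 cells in Ctrl and 6.56 and 1.47% in Reg1-MO had a Flt3 UMI.

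Flt3 was also lower in a monocyte cluster. Cluster 11 of the macrophage-like class, led by Vcan, Plcb1 and Grk5 and high in monocyte markers, held 74.0% of the Flt3 UMIs of that class. It had 364 and 394 cells in Ctrl and 90 and 120 in Reg1-MO. Normalised Flt3 was 126 and 155 CPM in Ctrl against 41.3 and 23.3 CPM in Reg1-MO, and normalised Csf1r was 213 and 185 against 308 and 362 CPM, both without overlap. In the fit of cluster 11, added after the class results were seen, Flt3 fell by 2.18 on the log2 scale (SE 0.21, adjusted p = 0.00017) and Csf1r rose by 0.75 (SE 0.12, adjusted p = 0.00311). The share of genes called was 7.77% of 9436. In fits without 1 library, which called 118 to 879 genes, Flt3 had an adjusted p under 0.05 with log2 fold changes from -2.59 to -1.77. Csf1r was not called without Reg1-MO 2 (0.63, adjusted p = 0.0668). Thinned shares of cluster 11 cells with a Flt3 UMI were 30.8 and 34.6% in Ctrl and 14.4 and 2.59% in Reg1-MO. Macrophage-like clusters 1 and 3 held less Flt3 and gave log2 fold changes of similar size, neither called by edgeR. Cluster 1 had 4.77 and 18.9 against 2.28 and 2.78 normalised CPM (-2.01 ± 0.67, adjusted p = 0.285). Cluster 3 had 0.92 and 5.15 against 1.08 and 0 CPM, with overlap (-1.95 ± 1.06, adjusted p = 0.599). The lower values were thus not particular to cluster 11.

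Marker transcripts moved with these values. In cluster 11 the 15 neutrophil markers summed to 4668 and 7033 CPM in Ctrl and 1096 and 1077 CPM in Reg1-MO, and the 15 monocyte/macrophage markers to 62587 and 67523 against 46024 and 41833 CPM. Its 12 microglial markers summed to 193 and 186 against 285 and 319.7 CPM. In cluster 16 the monocyte/macrophage markers summed to 29945 and 31969 against 20356 and 22857 CPM, and the microglial markers to 129.5 and 146 against 304 and 234 CPM. The 7 progenitor markers of cluster 16 (Mpo, Elane and others) summed to 6258 and 5310 CPM in Ctrl and 5800 and 5487 CPM in Reg1-MO, which overlapped. The part of these differences in the Flt3 and Csf1r values was not tested.

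In the macrophage-like class as a whole, normalised Flt3 was 14.9 and 32.1 CPM in Ctrl and 2.92 and 3.74 CPM in Reg1-MO. The log2 fold change of -2.84 ± 0.42 missed the threshold in edgeR (adjusted p = 0.238), which called 0.0% of genes there. It passed in DESeq2 (adjusted p = 6.8e-09), which called 527 genes. Without Ctrl 1 edgeR gave -3.30 (adjusted p = 0.000175, 2302 of 13405 genes called) and without Ctrl 2 it gave -2.19 (adjusted p = 0.00767, 142 of 14070 called), with the spread taken from the Reg1-MO libraries alone. Without Reg1-MO 1 or Reg1-MO 2 edgeR did not call it. Cluster 11 made up 17.8 and 27.5% of the class in Ctrl and 3.24 and 10.2% in Reg1-MO, and the part of this in the class value was not tested. Microglia-like cells, where Flt3 is near background, had 1.67 to 3.54 CPM with overlapping groups.

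**Figure D3:**
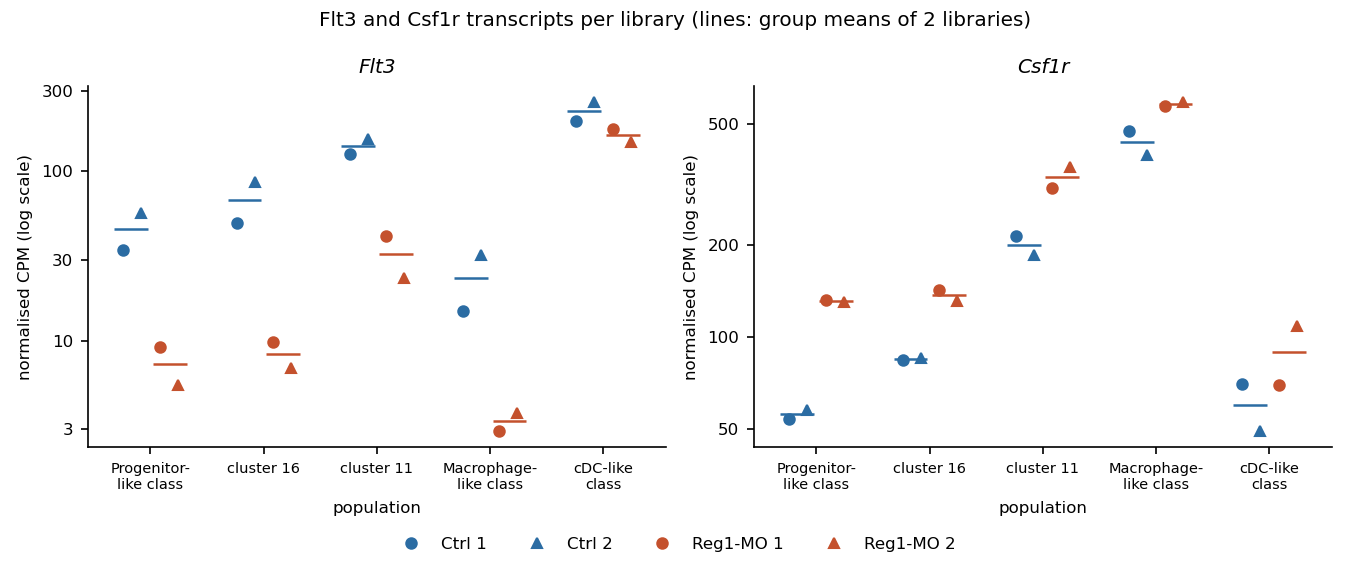
Normalised CPM on log axes of Flt3 (left) and Csf1r (right) in 5 populations, with 1 point per library and lines at the group means of 2 libraries. Flt3 is lower in both Reg1-MO libraries in the progenitor-like class, cluster 16, cluster 11, macrophage-like and cDC-like cells, and Csf1r is higher in both in all but the cDC-like class. Of these, edgeR called the progenitor-like class and cluster 11 for both genes.

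The share of each gene's UMIs that a class supplied combines its level, its cell number and its RNA content. Microglia-like cells supplied 63.5 and 52.6% of Csf1 in Ctrl and 84.8 and 82.5% in Reg1-MO. They supplied 50.7 and 33.8% of Csf1r in Ctrl and 66.2 and 71.8% in Reg1-MO. Both differences (25.6 and 26.8 percentage points) depended on where cluster 18 is placed, since it held 30.4% of the Csf1 and 31.0% of the Csf1r UMIs of Ctrl 2. With cluster 18 counted as microglia, an alternative chosen after seeing the data, the Csf1 shares were 71.1 and 82.9% against 88.2 and 86.5%, and the Csf1r shares 54.0 and 64.8% against 67.8 and 74.5%. The groups did not overlap either way.

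The shares of Csf3r and Flt3 were read in the same way. For Csf3r, neutrophil-like cells supplied 33.8 and 43.7% in Ctrl and 7.29 and 32.6% in Reg1-MO, and microglia-like cells 30.1 and 14.6% against 57.8 and 41.2%. The neutrophil-like shares of Ctrl 1 and Reg1-MO 2 were close to each other. Neutrophil-like cells were 27.5 and 38.1% of Ctrl cells and 5.9 and 20.8% of Reg1-MO cells. For Flt3, macrophage-like cells supplied 38.1 and 44.2% in Ctrl and 6.71 and 6.85% in Reg1-MO, progenitor-like cells 16.2 and 19.6% against 0.925 and 1.31%, and cDC-like cells 22.0 and 14.5% against 47.4 and 35.5%. CD4 T-like cells supplied 38.5 and 30.4% of Flt3l in Ctrl and 29.6 and 33.0% in Reg1-MO, which overlapped. For each share with groups that did not overlap, the two-sided exact permutation p was 0.3333, the smallest possible with 2 against 2 libraries, so these shares are a description.

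**Figure D4:**
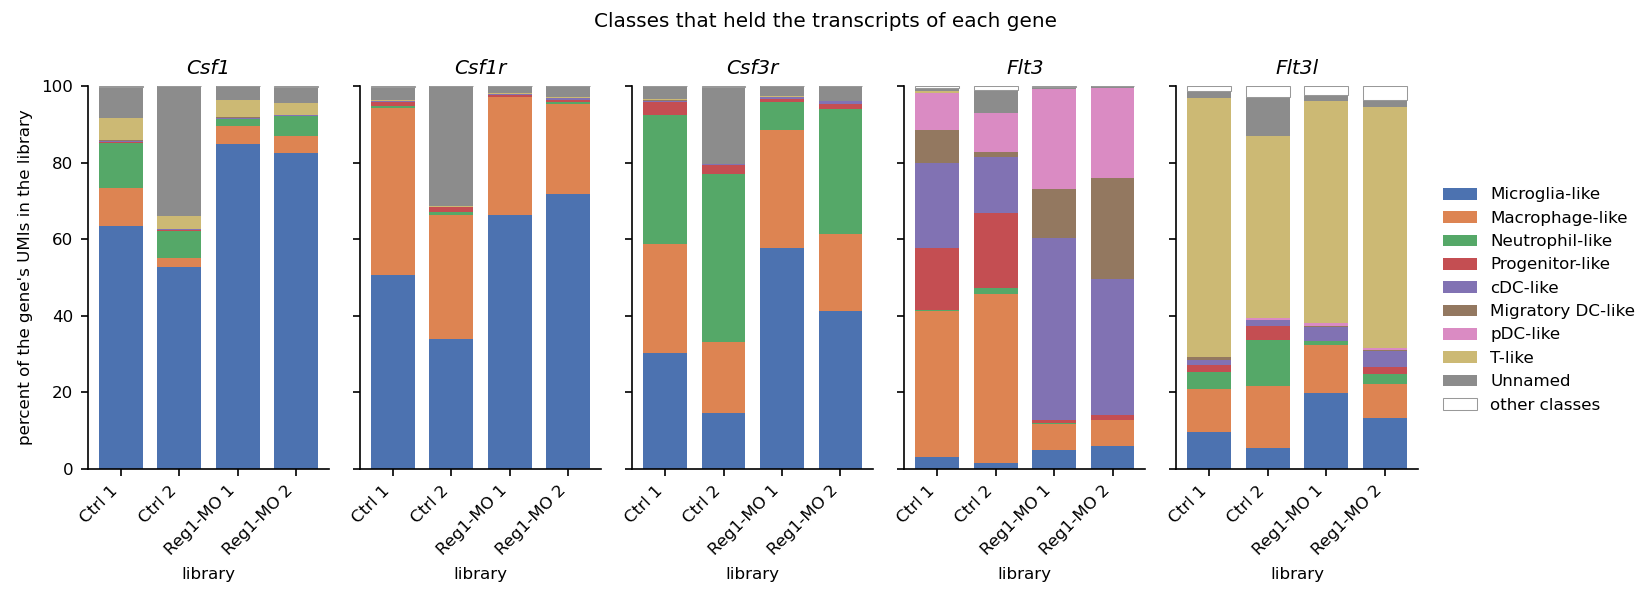
Percent of each gene's UMIs in a library (bars, 1 per library, from 0 to 100) that came from each class, for Csf1, Csf1r, Csf3r, Flt3 and Flt3l. Macrophage-like and progenitor-like cells hold 38.1 to 44.2% and 16.2 to 19.6% of Flt3 in the Ctrl libraries and at most 6.85% and 1.31% in Reg1-MO, and the unnamed part of Csf1 and Csf1r is largest in Ctrl 2.

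Other genes of the 3 pathways were read from lists, as counts and medians beside all genes tested. In progenitor-like cells 4 of 20 genes of CSF1R signalling and the mononuclear phagocyte programme rose and none fell, with a median log2 fold change of 0.28 against a median near 0 for all genes. Of all 10735 genes tested in this class 338 rose and 285 fell (5.8% called), the background for each list count in it. They included the phagocyte receptor Trem2 (normalised 33.2 and 30.4 against 60.2 and 62.9 CPM, adjusted p = 0.0106), its adaptor Tyrobp (977 and 937 against 1374 and 1296 CPM, adjusted p = 0.0272) and the transcription factor Cebpb (1341 and 1128 against 2139 and 1656 CPM, adjusted p = 0.0447). Of 18 genes of the G-CSF receptor and granulocyte list, 2 fell and 1 rose. Those that fell were Gfi1 (46.6 and 42.1 against 10.9 and 16.4 CPM) and Cebpe (175.5 and 122 against 54.3 and 80.9 CPM), transcription factors of granulocyte development. These lists share the make-up of the class with Csf1r and Flt3, including the smaller part of cluster 28.

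From the FLT3 and dendritic cell list, of which 12 of 15 genes were tested, Nfil3 rose (104 and 87.6 against 170.1 and 145 CPM) and Kit, the stem cell factor receptor, fell (16.2 and 19.4 against 5.47 and 8.21 CPM). Kit is also on the list of other haematopoietic growth factor receptors and ligands, where it was the 1 gene called of 8 tested. Of 9 tested inducers of growth factor genes, Tnf (8.94 and 7.11 against 26.9 and 21.1 CPM) and Il1a (3.34 and 1.19 against 34.2 and 14.5 CPM) rose, with a median of 0.87 for the list. None of the 3 tested genes on the list of IL-34 alternative receptors and shedding proteases was called, where Adam10 had 75.1 and 84.3 against 89.4 and 72.7 CPM.

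In cluster 16 alone, no gene of these lists was called by edgeR, and the median of the CSF1R list was 0.16. In cluster 11 the picture of the CSF1R list was different. There 3 of its 20 genes fell, among them Tfec (127 and 159 against 92.3 and 22.6 CPM) and the ubiquitin ligase gene Cbl (189 and 212 against 149 and 134 CPM), none rose, and the median was -0.06. Of all 9436 genes tested in cluster 11, 363 rose and 370 fell (7.77% called), the background for these counts. The difference between the 2 populations was not tested. From the FLT3 list, Cbfa2t3 (21.9 and 27.1 against 42.2 and 72.6 CPM) and Batf3, a transcription factor of cDC1 (1.19 and 1.78 against 6.88 and 8.90 CPM), rose in cluster 11, and Ikzf1 (295 and 325.5 against 227 and 198 CPM) fell. The shedding protease gene Adam10 fell (115 and 117 against 70.7 and 71.9 CPM), and the inducers Nfkb1 (187 and 178 against 261 and 262 CPM) and Il1b (999.6 and 828 against 1253 and 1225 CPM) rose.

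By edgeR no gene of these 6 lists was called in macrophage-like, microglia-like, neutrophil-like or cDC-like cells. That count carries little, since edgeR called 0.0% of all genes in 3 of these classes and 0.0184% in neutrophil-like cells, while DESeq2 called 527, 5, 189 and 77 genes in the order named. The median of the inducer list was 0.95 in macrophage-like, 0.64 in microglia-like, 0.53 in neutrophil-like and 0.98 in cDC-like cells, against medians of all genes between -0.01 and 0.01. Il1b, a cytokine that induces Csf3 in many cell types, had 2135 and 1103 against 3246 and 4311 normalised CPM in macrophage-like cells (adjusted p = 0.242) and 1361 and 1115 against 2108 and 2782 CPM in cDC-like cells (adjusted p = 0.163). Both were without overlap.

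The genes whose level followed each of the 7 most closely over the 32 clusters were named by Pearson correlation of log2(CPM + 1) among 9622 genes. The clusters share libraries and depth, and these are descriptions. Csf1r was closest to Kcnk13 (r = 0.963), Trem2, Adgre1 and Ccl2, and Csf3r to C5ar1 (r = 0.964), C5ar2, Pilra and Lst1. Flt3l was closest to Thy1 (r = 0.948), Plcxd2, Cd247, Sh2d2a and Ccdc92. Il34 was closest to Klk1 (r = 0.996), Olfr164, Pnck and Sntg2. Among named classes it rose above 1 CPM only in pDC-like cells, which are a single cluster (cluster 21). Its correlations thus rest mainly on that cluster, and Klk1 is also one of the markers used to name it. Flt3 (Tox3, r = 0.855, then Cbfa2t3, Clec10a, Gria3 and Kctd14) and Csf1 (Egr1, r = 0.839, then Tnf, Sparc, Wwtr1 and Sall1) had looser company. Csf3 had too few UMIs for this comparison.

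In GRCm38 with GENCODE M21, the genes lie on 7 chromosomes. Csf1 is on chromosome 3 from 107741048 to 107760469 (minus), Csf1r on chromosome 18 from 61100598 to 61132149 (plus) and Il34 on chromosome 8 from 110741829 to 110805924 (minus). Csf3 is on chromosome 11 from 98701263 to 98703629 (plus), Csf3r on chromosome 4 from 126024550 to 126044440 (plus), Flt3 on chromosome 5 from 147330741 to 147400489 (minus) and Flt3l on chromosome 7 from 45129788 to 45136432 (minus). All are annotated as protein coding. Flt3l overlaps Gm45713 on the same strand, Csf1r overlaps Mir6983 on the same strand and Hmgxb3 on the other, and Il34 overlaps Gm15894 and Gm15895, while Flt3 overlaps Gm26597 on the other strand.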

How the data were processed

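Libraries were made with the 10x Genomics 3' version 3 kit, per the labels' protocols. The values deposited by the authors are UMI counts for each gene in each barcode, unnormalised. Per the file headers, Cell Ranger 5.0.1 wrote them. The build mm10 and Seurat 4.0 are named in the submitters' processing notes. The 7 genes, the lists and the marker genes were chosen with earlier results of these data known. Barcodes under 500 UMIs, under 200 genes or over 10% mitochondrial UMIs were dropped, and the cells with the highest Scrublet scores were removed at 0.8% per 1000 barcodes, since the automatic threshold marked 251, 0, 421 and 1 cells. Clustering (scanpy 1.11.5, 3000 variable genes without the 7, 40 components, Leiden resolution 1) used no integration. Clusters were named from fixed markers, with score thresholds set after seeing the data. Counts were summed per library and class of at least 50 cells in each library, filtered with filterByExpr (minimum count 10), normalised by TMM and tested with edgeR 4.0.16 in R 4.3.3. Normalised CPM uses the TMM library sizes. DESeq2 1.42.0 was an alternative. The fit was tested on simulated data. Planned fits in CD8 T-like, regulatory T-like, NK/ILC1-like and pooled T-like cells were run. Of the 7 genes, only Csf1r has its fold change described for CD8 T-like and pooled T-like cells. Csf1r did not pass the filter in regulatory T-like and NK/ILC1-like cells, whose fold changes are not described. Shares of cells were thinned to 3000 UMIs, leaving out shallower cells. Named genes were the 7, Zc3h12a, the 5 closest by correlation for each of the 7 with at least 100 UMIs, and for each list the called genes (up to 4 by p) or the 2 highest, of which some are not reported here. Gene positions came from GENCODE M21, matched by identifier.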

Additional observations from a re-analysis of the deposited data

How the results depend on the processing

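Of 458 values recomputed under alternatives, for 59 results, 352 kept their direction and their side of the threshold or stayed within the spread, 65 moved, 14 reversed, 24 passed the threshold that the main value missed and 3 lost it. DESeq2 called 1021 genes in all cells, 5 in microglia-like, 527 in macrophage-like, 189 in neutrophil-like, 77 in cDC-like and 83 in CD4 T-like cells, and 294 in cluster 11 and 111 in cluster 16. Without a filter on low counts edgeR called 215, 5, 2028, 714, 764 and 634 in the same 6 classes, 1590 in progenitor-like cells and 588 in cluster 16. Size factors in place of TMM gave 20 in cluster 16. With a replicate block the calls were 31 in all cells, 507 in neutrophil-like, 58 in cDC-like and 139 in CD4 T-like cells and 126 in cluster 16, and the block made Csf1r called in neutrophil-like cells (adjusted p = 0.000377) and both Flt3 and Csf1r called in cluster 16. The labels give numbers 1 and 2 in both groups and state no pairs, so the main fits took none. Deviations of same-numbered libraries correlated over genes at 0.342 in microglia-like cells and 0.280 in all cells. In the other classes these correlations ran from -0.0622 to 0.119. Part of the spread in the microglia-like fit thus went with the replicate number. Leaving out 1 library in turn gave 0 to 37 calls in all cells, 0 to 2302 in macrophage-like, 48 to 314 in neutrophil-like, 193 to 932 in progenitor-like, 1 to 816 in cDC-like, 1 to 502 in CD4 T-like cells, 118 to 879 in cluster 11 and 0 to 314 in cluster 16. It gave log2 fold changes of -1.62 to 0.19 for Csf1 and -0.27 to 0.48 for Csf1r in microglia-like cells, -0.0599 to 0.17 for Csf3r in macrophage-like cells, -0.26 to 0.011 for Csf3r in progenitor-like cells and -0.31 to 0.0643 for Flt3l in CD4 T-like cells. For the difference between microglia-like and macrophage-like effects it gave -2.30 to 0.54 for Csf1 and -0.78 to 0.17 for Csf1r. The Flt3l share of CD4 T-like cells (Reg1-MO minus Ctrl) went from -7.24 to 0.90 percentage points and the thinned Csf1r share of microglia-like cells from -2.97 to 3.21. With doublets kept, 109 genes were called in neutrophil-like and 0 in progenitor-like cells (edgeR, 1143 there at an unadjusted p under 0.05), Csf1 in neutrophil-like cells was at -0.21 and Csf3r in progenitor-like cells at 0.19, and Csf3r averaged 514 CPM in neutrophil-like cells. With the 7 genes allowed into the clustering, 1 gene was called in neutrophil-like cells, their Csf3r averaged 539 CPM, and the microglia-like shares differed by 48.4 points for Csf1 and 42.0 for Csf1r. With cluster 18 added to microglia-like cells, which was chosen after seeing the data like the cluster fits and the removal of shared barcodes, these were 10.3 and 11.7 points. The causes were not tested. Low counts limit Il34, Csf3 and Flt3 in Reg1-MO progenitor-like cells.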
